A study of Mus musculus with 6 samples.

Results

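The genes described here move or store metal ions in the testis: the zinc transporters of the SLC30 and SLC39 families, the magnesium transporters of SLC41, the iron carriers of SLC11 and SLC40, the copper carriers of SLC31 with the copper pumps Atp7a and Atp7b, the metallothioneins, ferritins, transferrin receptors, STEAP reductases and Hfe. They were chosen by gene symbol, with earlier results of these data known. Of the 55331 genes in the authors' deposited table, 47 belong to the set. RNA with poly(A) tails was sequenced from whole testes of mice of mixed strain aged 35 days, in 3 Ptbp1_cKO libraries (Ptbp1 fl/fl with Amh-Cre+/-) and 3 control libraries (Ptbp1 fl/fl without the Cre). Amh-Cre drives recombination in Sertoli cells, the somatic cells that enclose and nourish the germ cells, and the study asks what PTBP1, a regulator of alternative splicing, does in them. Floxed Ptbp1 alleles are carried by both groups, and no group used here carried Amh-Cre alone, so the deletion and the transgene cannot be told apart. The labels do not tie libraries to separate animals.

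Zinc enters the cytosol through SLC39 proteins and leaves it, for organelles or the outside, through SLC30 proteins, while metallothioneins hold zinc and copper in clusters of cysteines. Iron is taken up bound to transferrin by the transferrin receptor, reduced by STEAP proteins, carried to the cytosol by SLC11A2, stored in ferritin and released by ferroportin (SLC40A1). Germ cells sit behind the barrier formed by Sertoli cells and so depend on these cells for their metals, and zinc is needed for sperm formation.

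The deposited table gives 1 FPKM value a group (fragments per kilobase of transcript, scaled to the size of the library), combined by the authors over the 3 libraries, and no value per library. All levels below are therefore the authors' group values without SD, and whether the libraries of the groups overlapped is not known. Differences are log2 ratios of the FPKM of Ptbp1_cKO over control, and a gene counts as called where Cuffdiff's q-value, adjusted over all 22048 tested genes, was under 0.05. Judged by the steps between low values, each FPKM and kb of effective length stood for about 204 fragments in the Ptbp1_cKO group and 226.04 in the control group. Ptbp1 itself stood at 46.7 FPKM in Ptbp1_cKO and 49.97 FPKM in control (q = 0.999 in the authors' deposited table), a level that does not check the labels, since whole testis holds many other cells and a gene value does not separate a deleted exon. Markers fitted the labelled tissue: the protamine gene Prm1 of elongating spermatids had 16362 FPKM in Ptbp1_cKO and 13135 FPKM in control, although Prm2 was listed at 0 in both with a failed estimate (status HIDATA).

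Of the 47 genes, 42 were tested. In Ptbp1_cKO the metallothionein Mt3 rose, and it was the only tested member called. That is 1 of 42 members higher, or 2.38%, against 0.458% of all tested genes called higher in the authors' deposited table. By Cuffdiff's q, 0 members were lower, against 0.703% of all tested genes. At an unadjusted p under 0.05, 4 members were higher in the authors' deposited table, namely Mt3, Slc30a2, Slc41a1 and Ftl1 (4 of 42, 9.52%, against 4.38% of all tested genes), and 0 were lower (against 4.59% of all tested genes). A normal p computed from Cuffdiff's deposited statistic and adjusted over the same genes called 0 members in either direction, against 0.0408% of all tested genes higher and 0.0454% lower. Most members lay close to the control level: the log2 ratio was within 0.2 of 0 for 28 of the 42 (66.7%, against 60.8% of all tested genes with a ratio), and the median log2 ratio was 0.02, against 0.0054 over all tested genes. Higher FPKM values in Ptbp1_cKO were found for 26 of the 42 members (61.9%, against 50.9% of all tested genes), and lower ones for 16. In whole testis, fewer cells of a type and less RNA per cell cannot be told apart, for these and for all values below.

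**Figure D1:**
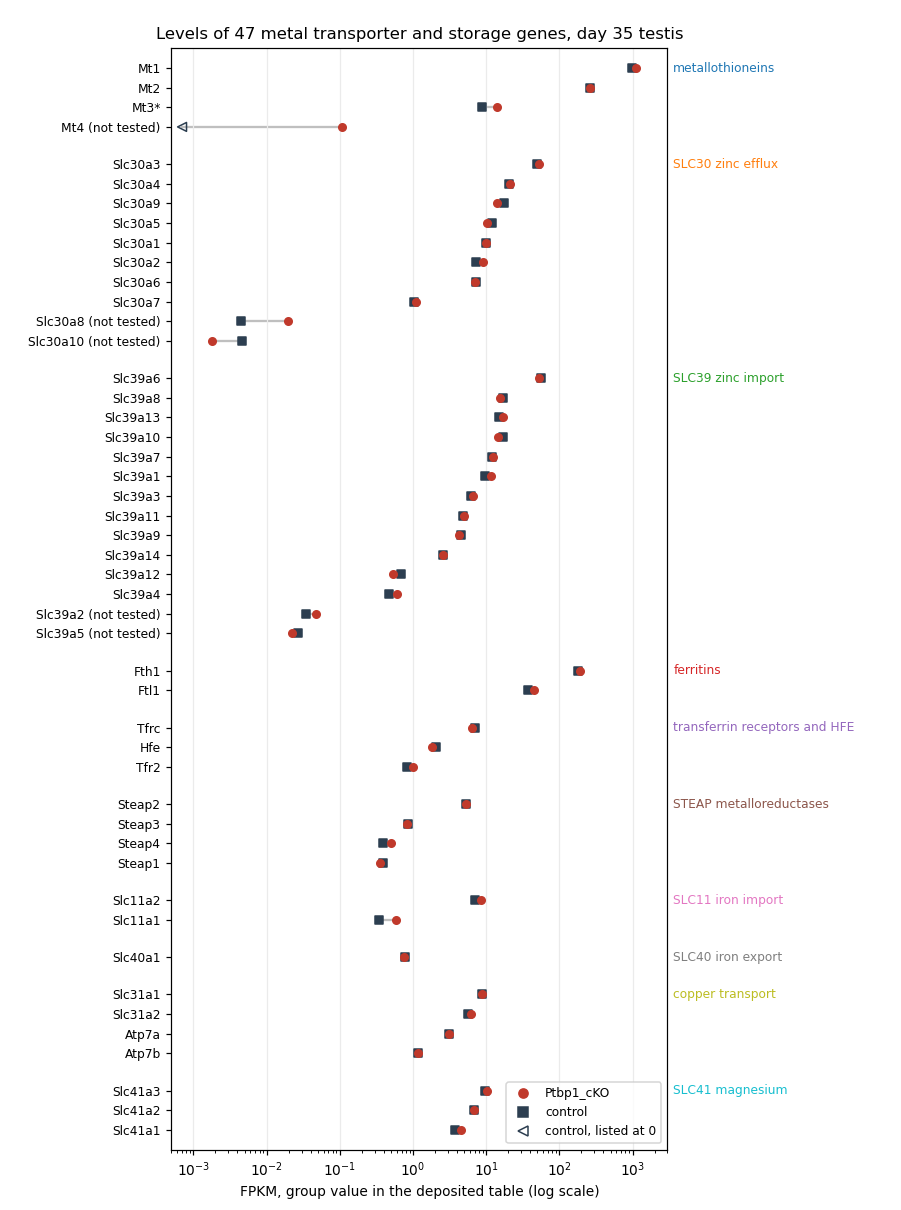
FPKM of each of the 47 genes (horizontal axis, log scale) by role, with red circles for Ptbp1_cKO and dark squares for control; the open triangle marks a gene listed at 0 in control, and the asterisk marks the gene called in the deposited test. The symbols lie on or next to each other for most genes, and the called gene Mt3 is apart at 14.2 FPKM in Ptbp1_cKO and 8.87 FPKM in control. Symbols lie further apart for some genes below 1 FPKM: Slc11a1 (tested, not called) and Slc30a8, Slc30a10 and Mt4 (not tested).

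**Figure D2:**
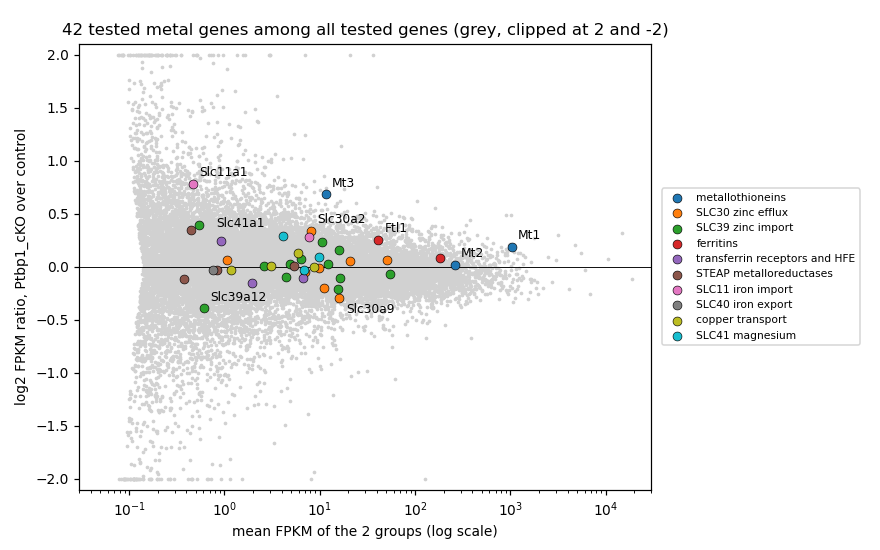
Log2 FPKM ratio of Ptbp1_cKO over control (vertical axis) against mean FPKM (horizontal axis, log scale) for all tested genes with a ratio (grey) and the 42 tested metal genes (coloured by role). The members lie within the grey cloud, with Slc11a1 at 0.78 and Mt3 at 0.68 as the highest ratios and Slc39a12 at -0.39 as the lowest.

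The levels spanned a wide range. Mean FPKM was at or above 100 for 3 members (Mt1, Mt2 and Fth1), from 10 to 100 for 12, from 1 to 10 for 19, from 0.1 to 1 for 8 and below 0.1 for 5. Those last 5 are Mt4, Slc30a8, Slc30a10, Slc39a2 and Slc39a5, which are the members Cuffdiff did not test. Mt1 ranked 51 among the 22048 tested genes by mean FPKM, and Mt2 ranked 478. After these metallothioneins and Fth1 came the transporters Slc39a6 (rank 2543) and Slc30a3 (rank 2652), ahead of the ferritin light chain Ftl1 (rank 3104), while Mt3 ranked 7009.

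Metallothioneins are small cysteine-rich proteins, of which MT1 and MT2 are made in most tissues and induced by metals, whereas MT3 was first described in brain as a growth inhibitory factor and MT4 in stratified epithelium. Their genes lie side by side on chromosome 8, 43.1 kb from the start of Mt4 to the end of Mt1 (chr8:94137197-94180327, GRCm38, all on the plus strand). Mt3 (ENSMUSG00000031760.9, chr8:94152607-94154146, protein-coding) had 14.2 FPKM in Ptbp1_cKO and 8.87 FPKM in control, a ratio of 1.60 and a log2 ratio of 0.68, with p = 0.0002 and q = 0.0248 in the authors' deposited table. Computed from its deposited statistic of 2.16, the normal p was 0.0310 and the adjusted p 0.9999, so the call rests on how Cuffdiff obtained its p. With the longest of its 3 annotated transcripts, 536 bases, those levels stand for 789 fragments in Ptbp1_cKO and 554 in control, and for fewer with the shorter transcripts.

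Neighbouring metallothioneins did not pass the threshold. Mt1, the most abundant member, had 1107 FPKM in Ptbp1_cKO and 971.1 FPKM in control, a log2 ratio of 0.19 with p = 0.0558 and q = 0.576 in the authors' deposited table. Mt2 had 262.0 FPKM in Ptbp1_cKO and 258.8 FPKM in control, a log2 ratio of 0.02 (p = 0.873, q = 0.999 in the authors' deposited table). Mt4 was listed at 0.107 FPKM in Ptbp1_cKO, which its 398-base transcript turns into 2.92 fragments, and at 0 in control, so no fold is given. All 3 tested members of the family thus had the higher FPKM in Ptbp1_cKO, and their summed FPKM with Mt4 was 1383 in Ptbp1_cKO and 1239 in control, of which Mt1 made up 80.02% in Ptbp1_cKO and 78.4% in control. The difference between the ratio of Mt3 and those of Mt1 and Mt2 was not tested. Within 250 kb of the start of Mt3, 13 genes were tested and Mt3 was the 1 called; the other 12 had log2 ratios from -0.37 (Slc12a3) to 0.26 (Gm15890). Herpud1, a gene of the endoplasmic reticulum stress response, had 95.7 FPKM in Ptbp1_cKO and 82.1 FPKM in control (p = 0.0477, q = 0.546 in the authors' deposited table). Both closest flanking genes outside the cluster with at least 1 FPKM, Bbs2 and Nup93, had log2 ratios of 0.06 and 0.14.

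**Figure D3:**
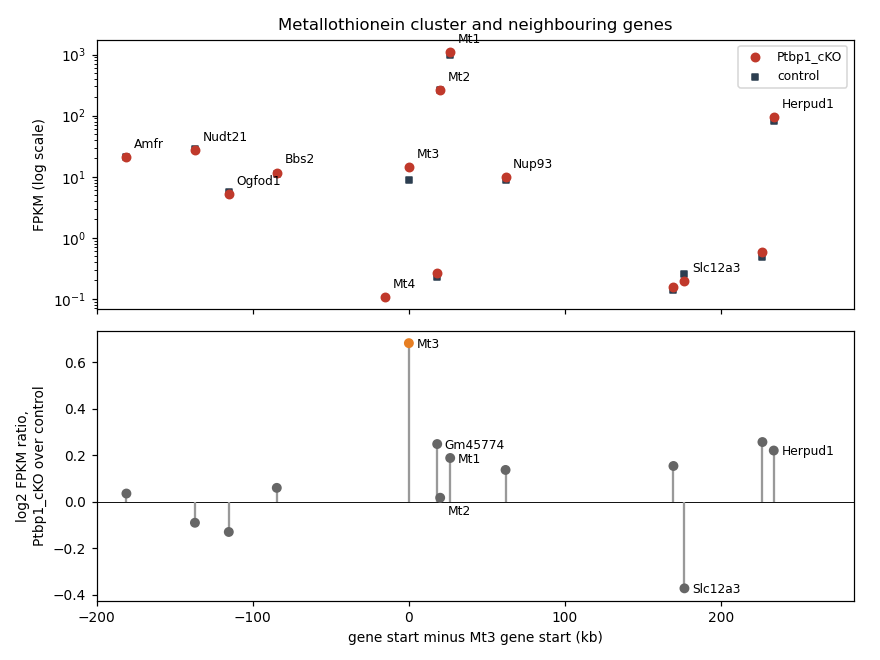
Tested genes within 250 kb of Mt3, and Mt4, placed by the distance of their start from the Mt3 start in kb; the upper panel gives FPKM on a log scale for Ptbp1_cKO (red circles) and control (dark squares), and the lower panel the log2 FPKM ratio of tested genes, with the called gene in orange. Mt3 stands at 0.68 and the other 12 tested genes between -0.37 and 0.26.

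Transcription of metallothionein genes is driven by MTF-1, a zinc-sensing factor that binds metal response elements. The promoters of the 3 tested metallothionein genes are shown because Mt3 was called and its neighbours were not. They come from RefSeq (GRCm38.p6), run 5' to 3' from 250 bases before to 50 bases after the start site, and lie at chr8:94152357-94152656 for Mt3, chr8:94178839-94179138 for Mt1 and chr8:94172368-94172667 for Mt2, plus strand. Capitals mark matches to the core of the metal response element, searched as TGCACNC and TGCGCNC on both strands; no matches overlap in these promoters.
Mt3: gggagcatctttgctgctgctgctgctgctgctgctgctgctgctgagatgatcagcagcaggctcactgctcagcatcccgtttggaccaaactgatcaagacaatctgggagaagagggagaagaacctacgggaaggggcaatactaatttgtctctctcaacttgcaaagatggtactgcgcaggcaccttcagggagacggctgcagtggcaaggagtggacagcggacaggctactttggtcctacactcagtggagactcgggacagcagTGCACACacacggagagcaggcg
Mt1: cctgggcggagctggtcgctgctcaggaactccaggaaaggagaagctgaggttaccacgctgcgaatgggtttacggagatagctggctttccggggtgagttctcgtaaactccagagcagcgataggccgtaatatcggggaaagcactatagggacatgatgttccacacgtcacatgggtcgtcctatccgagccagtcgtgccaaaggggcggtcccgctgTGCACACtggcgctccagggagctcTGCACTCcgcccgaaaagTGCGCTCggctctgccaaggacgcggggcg
Mt2: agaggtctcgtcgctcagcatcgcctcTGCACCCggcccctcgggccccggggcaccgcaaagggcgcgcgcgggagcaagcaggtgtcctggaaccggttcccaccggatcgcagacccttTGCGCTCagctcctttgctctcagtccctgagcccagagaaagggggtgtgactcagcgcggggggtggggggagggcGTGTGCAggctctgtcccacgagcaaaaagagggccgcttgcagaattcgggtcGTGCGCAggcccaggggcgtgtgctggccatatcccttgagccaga
Mt3 had 1 match, 28 bases after the start site, whereas Mt1 had 3 and Mt2 had 4. The RefSeq start sites differ from the GENCODE gene starts for Mt1 (chr8:94179082) and Mt2 (chr8:94172664), so the windows do not sit alike on the 3 genes. At least 1 match was found in 25.7% of all 32851 promoters in the table, and 3 or more in 1.97%. RefSeq promoters were matched by symbol for 41 of the 47 members, and 25 of their 55 promoters (45.5%) held a match. Slc30a1, the zinc exporter of the cell surface and a known MTF-1 target, had 2 matches, Slc30a2 had 2, Slc41a1 had 1 and the promoter of Ftl1 had 0. Mtf1 itself stood at 38.1 FPKM in Ptbp1_cKO and 38.9 FPKM in control (q = 0.999 in the authors' deposited table). A match to these letters is a description and not a bound site.

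**Figure D4:**
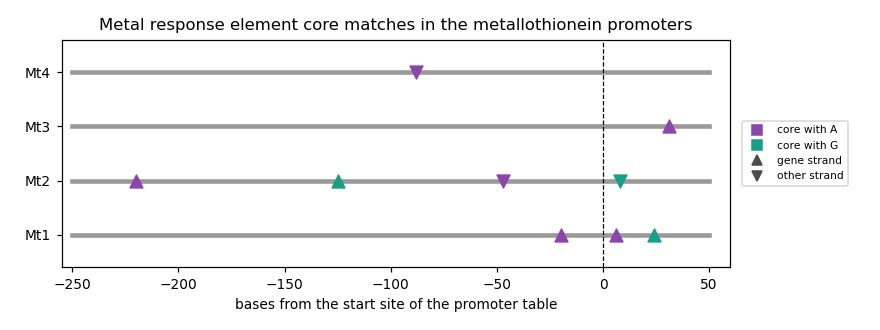
Positions of matches to the metal response element core in the promoters of the 4 metallothionein genes, in bases from the start site (dashed line), with upward triangles on the strand of the gene, downward ones on the other, purple for the core with A and green for the core with G. Mt3 and Mt4 have 1 match each, Mt1 has 3 and Mt2 has 4.

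Markers of cell types were set beside Mt3, since whole testis was sequenced. All 10 Sertoli cell markers had a higher FPKM in Ptbp1_cKO, with a median log2 ratio of 0.28, and their summed FPKM was 1364 in Ptbp1_cKO and 994.6 in control. Clu, a secreted chaperone, was the 1 of them called, at 1199 FPKM in Ptbp1_cKO and 853.6 FPKM in control (q = 0.00848 in the authors' deposited table). Macrophage markers were higher for 8 of 10 (1 called, C1qb, median 0.32; Mrc1 was lower at an unadjusted p of 0.0105 in Cuffdiff's test), stromal markers for 5 of 5 (2 called, Col1a1 and Dcn, median 0.36) and spermatogonial markers for 5 of 6 (2 called, Kit and Uchl1, median 0.28). Leydig cell markers split evenly, 4 higher with Insl3 called and 4 lower, while all 6 spermatocyte markers were lower with 0 called by Cuffdiff (1 at an unadjusted p under 0.05). Summed marker FPKM in Ptbp1_cKO and control was 1407 and 1133 for Leydig cells, 420.6 and 419.7 for macrophages, 57.6 and 42.1 for stroma, 98.0 and 82.1 for spermatogonia and 2632 and 3009 for spermatocytes. By the normal p, 0 of the markers of these 6 types were called. None of them was listed at 0 in both groups. The Leydig sum was mostly Insl3, at 1049 FPKM in Ptbp1_cKO and 749.6 FPKM in control. Aif1, at 353.8 FPKM in Ptbp1_cKO and 366.3 FPKM in control, made up most of the macrophage sum. Clu and Ldhc likewise made up most of the Sertoli and spermatocyte sums. Among the remaining lists, myoid markers were higher for 4 of 5, endothelial for 5 of 5, round spermatid for 1 of 5 and elongating spermatid for 4 of 5 tested, with 0 called by Cuffdiff (0, 1, 2 and 2 of them at an unadjusted p under 0.05). Their summed FPKM in Ptbp1_cKO and control was 206.6 and 182.6, 11.2 and 9.52, 603.3 and 662.6, and 47987 and 45362. Mt3 at 0.68 lay above every marker of these types in the log2 ratio; Mt1 at 0.19 and Mt2 at 0.02 lay below the Sertoli, macrophage and stromal medians. The epididymis markers Crisp1 and Adam7, whose levels stand beside Ltf, and the erythroid gene Hba-a1 (0.74) had higher log2 ratios than Mt3. The part of these cell types and lists in the change of Mt3 was not tested.

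**Figure D5:**
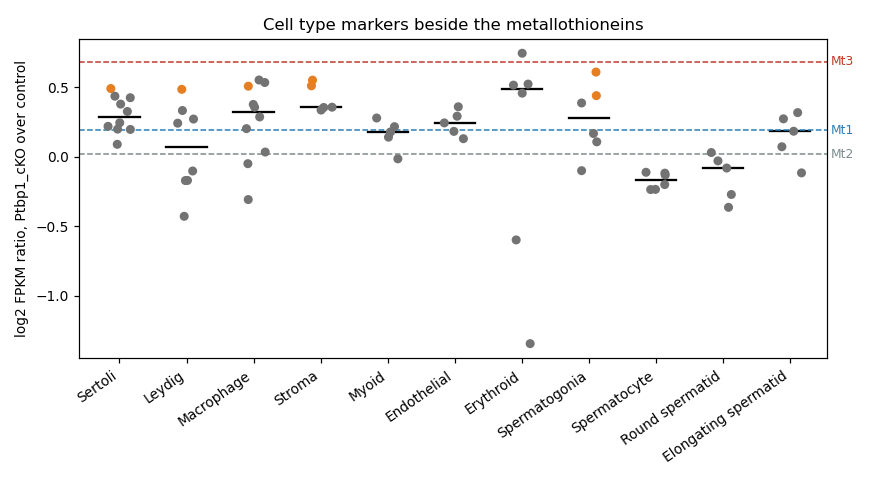
Log2 FPKM ratio of Ptbp1_cKO over control (vertical axis) of tested markers by cell type, without the epididymis list, each point a gene, orange where called, with black bars at the medians; dashed lines give Mt3, Mt1 and Mt2. The Mt3 line at 0.68 runs above all plotted markers except 1 erythroid gene at 0.74, and the spermatocyte median lies below 0.

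Among the SLC30 proteins, which clear zinc from the cytosol, 8 of 10 genes were tested, 4 were higher and 4 lower in Ptbp1_cKO, and 0 were called by Cuffdiff (1 at an unadjusted p under 0.05, 0 by the normal p). Their summed FPKM was 124.9 in Ptbp1_cKO and 124.9 in control. Slc30a2, which loads zinc into secretory vesicles such as those of the mammary gland, had 9.14 FPKM in Ptbp1_cKO and 7.21 FPKM in control, a log2 ratio of 0.34 with p = 0.00515 and q = 0.180 in the authors' deposited table (chr4:134343181-134354484, GRCm38). Slc30a3, which fills synaptic vesicles with zinc in the brain, was the most abundant at 52.4 FPKM in Ptbp1_cKO and 50.2 FPKM in control (q = 0.999 in the authors' deposited table). It held 41.9% of the family's summed FPKM in Ptbp1_cKO and 40.1% in control. The endosomal transporter gene Slc30a4 followed, at 21.1 FPKM in Ptbp1_cKO and 20.3 FPKM in control. Slc30a9 of mitochondria had 14.1 FPKM in Ptbp1_cKO and 17.4 FPKM in control, the lowest log2 ratio of the family at -0.30 (p = 0.132, q = 0.771 in the authors' deposited table). Slc30a5, Slc30a6 and Slc30a7, which serve the secretory pathway, had log2 ratios of -0.20, -0.05 and 0.06. Slc30a8 of insulin granules (0.0194 FPKM in Ptbp1_cKO and 0.00449 FPKM in control) and the manganese exporter Slc30a10 (0.00180 FPKM in Ptbp1_cKO and 0.00465 FPKM in control) had the lowest levels of the family and were not tested.

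Of the SLC39 proteins, which bring zinc into the cytosol, 12 of 14 genes were tested, with 7 higher and 5 lower and 0 called by Cuffdiff, 0 at an unadjusted p under 0.05 and 0 by the normal p. Their summed FPKM was 143.5 in Ptbp1_cKO and 145.7 in control. The most abundant was Slc39a6, whose product pairs with that of Slc39a10, at 53.3 FPKM in Ptbp1_cKO and 55.8 FPKM in control (log2 ratio -0.06, q = 0.999 in the authors' deposited table). Slc39a6 held 37.2% of the family's summed FPKM in Ptbp1_cKO and 38.3% in control. Its partner Slc39a10 had 14.5 FPKM in Ptbp1_cKO and 16.7 FPKM in control (p = 0.0678, q = 0.624 in the authors' deposited table). Slc39a1, a zinc importer of the cell surface, had the largest change among members of the family at 1 FPKM or more, with 11.5 FPKM in Ptbp1_cKO and 9.77 FPKM in control (log2 ratio 0.23, p = 0.0582, q = 0.584 in the authors' deposited table). Slc39a8, which also carries manganese, stood at 15.6 FPKM in Ptbp1_cKO and 16.8 FPKM in control. Slc39a13 of the Golgi apparatus stood at 16.7 FPKM in Ptbp1_cKO and 15.0 FPKM in control. The most abundant gene of each zinc family thus had a log2 ratio of 0.06 (Slc30a3) or -0.06 (Slc39a6). At low levels, Slc39a12 had 0.528 FPKM in Ptbp1_cKO and 0.694 FPKM in control (log2 ratio -0.39, p = 0.0739 in the authors' deposited table). Slc39a4, the importer of dietary zinc in the gut, had 0.614 FPKM in Ptbp1_cKO and 0.468 FPKM in control (log2 ratio 0.39, p = 0.1098 in the authors' deposited table). Slc39a14, which also carries iron and manganese, had a log2 ratio of 0.01.

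Iron storage rests on ferritin, a shell of heavy chains (Fth1), which oxidise iron, and light chains (Ftl1), which help lay it down as mineral. Ftl1 (chr7:45457944-45459884, GRCm38, minus strand) had 44.9 FPKM in Ptbp1_cKO and 37.6 FPKM in control, a log2 ratio of 0.26 with p = 0.0322 and q = 0.454 in the authors' deposited table. Fth1 had 188.5 FPKM in Ptbp1_cKO and 178.5 FPKM in control, a log2 ratio of 0.08 (p = 0.482, q = 0.999 in the authors' deposited table). Neither ferritin gene was called, and the heavy chain made up 80.8% of their summed FPKM in Ptbp1_cKO and 82.6% in control. Ftl1 was the 1 member with a near-identical copy elsewhere in the annotation, Ftl1-ps1, and it overlaps 2 annotated genes, so its value is uncertain.

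Ferritin, ferroportin and transferrin receptor mRNAs carry iron-responsive elements, hairpins bound by the iron regulatory proteins (genes Aco1 and Ireb2). They block translation when they sit in the 5' UTR and shield the mRNA from decay when they sit in the 3' UTR. Hairpins with the loop CAGTGN, an unpaired C and paired stems on either side were found in 24 of 21901 protein-coding genes (0.11%). That count took hairpins in any part of a transcript, coding sequence included, and on all chromosomes, unlike the member list that follows. Members listed with such a hairpin were Fth1, Ftl1 and Slc40a1 in the 5' UTR and Tfrc, 4 times, in the 3' UTR. The member list left out coding sequence and did not cover all chromosomes. The search also required 5 pairs in the upper stem and at least 4 pairs over 5 bases in the lower stem, so looser hairpins would be missed. A member absent from the list may therefore still carry an element. The elements are shown because they are where the iron regulatory proteins bind the mRNAs whose levels follow. They were read from GENCODE M21 transcripts on GRCm38, 5' to 3', with the loop in capitals.
Fth1 (chr19:9982733-9982759, plus strand): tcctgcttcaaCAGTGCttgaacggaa
Ftl1 (chr7:45459780-45459806, minus strand): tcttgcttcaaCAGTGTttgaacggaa
Slc40a1 (chr1:45925466-45925492, minus strand): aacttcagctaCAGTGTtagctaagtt
Tfrc a (chr16:32631220-32631246, plus strand): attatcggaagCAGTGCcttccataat
Tfrc b (chr16:32631599-32631625, plus strand): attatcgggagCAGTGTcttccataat
Tfrc c (chr16:32631664-32631690, plus strand): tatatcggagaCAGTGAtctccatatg
Tfrc d (chr16:32631711-32631737, plus strand): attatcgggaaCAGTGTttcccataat
The Fth1 and Ftl1 elements had the same base at 25 of 27 positions. Tfrc, the receptor that takes up transferrin, had 6.49 FPKM in Ptbp1_cKO and 6.99 FPKM in control, a log2 ratio of -0.11 (p = 0.641, q = 0.999 in the authors' deposited table). Slc40a1, the iron exporter ferroportin, had 0.760 FPKM in Ptbp1_cKO and 0.778 FPKM in control (log2 ratio -0.03, q = 0.999 in the authors' deposited table). None of the 4 genes with a listed hairpin was called, and 1 of them, Ftl1, had an unadjusted p under 0.05. Of the genes for the iron regulatory proteins, Aco1 had 4.37 FPKM in Ptbp1_cKO and 3.60 FPKM in control (log2 ratio 0.28, p = 0.0434, q = 0.525 in the authors' deposited table). Ireb2 had 16.7 FPKM in Ptbp1_cKO and 18.1 FPKM in control (q = 0.999 in the authors' deposited table). Gene values of mRNA do not show translation.

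Among the members, the rest of the iron handling genes gave 0 calls by Cuffdiff, 0 at an unadjusted p under 0.05 and 0 by the normal p. Slc11a2, which carries ferrous iron out of endosomes, had 8.49 FPKM in Ptbp1_cKO and 7.005 FPKM in control (log2 ratio 0.28, p = 0.369, q = 0.999 in the authors' deposited table). Slc11a1, its relative of macrophage phagosomes, had 0.595 FPKM in Ptbp1_cKO and 0.346 FPKM in control, the highest log2 ratio of the tested members at 0.78, yet with p = 0.169 and q = 0.834 in the authors' deposited table. Macrophage markers stood beside it with a median log2 ratio of 0.32, 8 of 10 higher, and their part in it was not tested. Hfe, a sensor of transferrin-bound iron in the liver, had 1.83 FPKM in Ptbp1_cKO and 2.03 FPKM in control, and Tfr2, its partner there, had 0.989 FPKM in Ptbp1_cKO and 0.838 FPKM in control. Their q was 0.999 for either gene in the authors' deposited table. The STEAP reductases were led by Steap2, at 5.34 FPKM in Ptbp1_cKO and 5.31 FPKM in control (log2 ratio 0.01, q = 0.999 in the authors' deposited table). Steap1, Steap3 and Steap4 stayed below 1 FPKM in both groups, with log2 ratios of -0.11, -0.03 and 0.35 and a smallest p of 0.123 in the authors' deposited table.

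The copper genes had log2 ratios from -0.03 to 0.13. Slc31a1, the high-affinity copper importer, had 8.74 FPKM in both groups. Slc31a2, its intracellular relative, had 6.19 FPKM in Ptbp1_cKO and 5.67 FPKM in control, the largest log2 ratio among the copper genes at 0.13 (q = 0.999 in the authors' deposited table). The copper pump genes Atp7a and Atp7b, mutated in Menkes and Wilson disease of humans, had log2 ratios of 0.01 and -0.03, at 3.11 and 1.15 FPKM in Ptbp1_cKO and 3.09 and 1.18 FPKM in control. By Cuffdiff 0 of the 4 were called, and the smallest unadjusted p was 0.466 in the authors' deposited table.

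For magnesium, Slc41a1, an exchanger that extrudes magnesium from cells, had 4.56 FPKM in Ptbp1_cKO and 3.73 FPKM in control, a log2 ratio of 0.29 with p = 0.0257 and q = 0.420 in the authors' deposited table (chr1:131827493-131848865, GRCm38, plus strand). Slc41a3, of mitochondria, had 10.2 FPKM in Ptbp1_cKO and 9.57 FPKM in control, and Slc41a2 had 6.76 FPKM in Ptbp1_cKO and 6.90 FPKM in control. Neither passed, with q = 0.999 for each by the authors' deposited table, so 0 of the 3 SLC41 genes were called and 1 had an unadjusted p under 0.05.

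Genes that work with these transporters were taken from 4 lists of 56 genes, of which 54 were tested. By Cuffdiff's q, 1 was higher (against 0.458% of all tested genes) and 0 lower (against 0.703%). At an unadjusted p under 0.05, 4 were higher (against 4.38% of all tested genes) and 0 lower (against 4.59%). The gene that rose was Ltf, for lactoferrin, a secreted iron-binding protein, at 1.10 FPKM in Ptbp1_cKO and listed at 0 in control (q = 0.00848 in the authors' deposited table), so no fold is given. Of 6 epididymis markers 3 were tested, 2 higher and 1 lower. Crisp1, the 1 called, had 5.90 FPKM in Ptbp1_cKO and 0.0482 FPKM in control (q = 0.00848 in the authors' deposited table) and Lcn8 was listed at 0 in both. Rnase10 had 1.98 FPKM in both groups (p = 0.975 in the authors' deposited table), and Adam7 had 0.323 FPKM in Ptbp1_cKO and 0.00142 FPKM in control (p = 0.459 in the authors' deposited table). The summed FPKM of those markers was 8.33 in Ptbp1_cKO and 2.09 in control, a difference made up mostly by Crisp1, and their part in Ltf was not tested. In the iron list 13 of 28 tested genes were higher, and the most abundant was the haem oxygenase gene Hmox2, at 571.6 FPKM in Ptbp1_cKO and 596.8 FPKM in control. In the copper list 2 of 10 were higher and 8 lower with 0 called by Cuffdiff and 0 at an unadjusted p under 0.05, and the superoxide dismutase gene Sod1 led it with 300.9 FPKM in Ptbp1_cKO and 321.8 FPKM in control. Both tested genes of the zinc list were lower and not called (0 at an unadjusted p under 0.05 by Cuffdiff). In the magnesium and manganese list 11 of 14 were higher with 0 called by Cuffdiff and 2 at an unadjusted p under 0.05. Atp13a2, a lysosomal pump, had 9.71 FPKM in Ptbp1_cKO and 7.19 FPKM in control (p = 0.0256, q = 0.420 in the authors' deposited table). Cnnm3, of a family linked to magnesium transport, had 1.014 FPKM in Ptbp1_cKO and 0.761 FPKM in control (p = 0.0286, q = 0.436 in the authors' deposited table). The most abundant gene of that list, the Golgi calcium and manganese pump Atp2c1, stood at 21.5 FPKM in Ptbp1_cKO and 22.1 FPKM in control.

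Members were spread over 19 chromosomes, and 20 of the 47 overlap another annotated gene, 16 of them a gene on the other strand. Strand use in the authors' counting is not given in the sources used here, so reads of such pairs may not be separated; Mt2 overlaps the antisense Gm45774 in this way, while Mt3 overlaps no annotated gene.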

How the data were processed

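Polyadenylated RNA of whole testes was sequenced in 3 Ptbp1_cKO and 3 control libraries made with a stranded kit, per the labels' protocols. Tools listed in the submitters' processing notes, without role or setting, are STAR 2.6.1d, Trimmomatic 0.38, bcl2fastq 2.20, Cuffdiff and Cufflinks, with the build mm10. The authors' deposited table gives FPKM values per group, combined over libraries, the log2 fold change, Cuffdiff's test statistic (a score, per the file headers), and a deposited q-value beside each deposited p-value. Values per library were not used here.

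Log2 ratios, role sums and medians were computed with Python 3.11.15 and pandas 2.3.3; recomputed log2 ratios equalled the deposited ones within 1.37e-05, and q recomputed by the Benjamini-Hochberg method from the deposited p matched within 5.20e-07. Medians used log2(FPKM + 1) for members with at least 0.1 FPKM in a group where so stated. Fragment weights came from genes with 1 transcript of 1 exon of 1500 to 6000 bases; they cover counting error only. Positions come from GENCODE M21 (GRCm38, the genome of mm10). Copies were sought with BLAST 2.17.0 at 95% identity over 80% of the longest transcript. The adjustment, fragment weights and motif searches were tested on simulated data. The members and lists were chosen with earlier results of these data known. Named in full are called members, those with an unadjusted p under 0.05, the 3 most abundant, and, in each role, the most abundant and the one with the largest log2 ratio in size among genes at 1 FPKM or more in a group; partner genes follow the same thresholds. All others were chosen after their values were seen.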

Additional observations from a re-analysis of the deposited data

How the results depend on the processing

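No paired analysis was possible because the deposited table holds 1 value a group, and for the same reason no library could be left out. With the normal p from the statistic, 0 members were called higher in place of 1 (Mt3, adjusted p 0.9999), and 0 partner genes were counted in place of 1, because Ltf, listed at 0 in control, has no finite statistic and no normal p could be computed for it. At an unadjusted p under 0.05, 4 members were higher. Counts of members called higher stayed at 1 with q under 0.1 and with adjustment over genes at 1 FPKM or more, and counts of members called lower stayed at 0 in each of these 4 alternatives. The median difference of log2(FPKM + 1) over 43 members was 0.02, and lay between 0.02 and 0.03 with pseudocounts of 0.1 and 0.01, with other filters on low values and after division by the median ratio. Genes with few fragments, such as Mt4, cannot show a difference at this depth.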

Other observations

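Among erythroid markers, which bear on iron through haem, 3 with an unadjusted p under 0.05 in Cuffdiff's test had ratios on both sides of the control level, and their q-values missed the threshold. The globin gene Hba-a1 had 4.51 FPKM in Ptbp1_cKO and 2.69 FPKM in control (p = 0.00365, q = 0.148 in the authors' deposited table), and Hbb-bs had 8.40 FPKM in Ptbp1_cKO and 5.85 FPKM in control (p = 0.0071, q = 0.217 in the authors' deposited table). Alas2, the erythroid enzyme that starts haem synthesis, had 3.85 FPKM in Ptbp1_cKO and 5.83 FPKM in control (p = 0.00445, q = 0.166 in the authors' deposited table).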
